A study of Homo sapiens with 2 samples.

Results

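The interval of chromosome 5 that carries the clustered protocadherin genes held 83 of the 105637 summits of the deposited peak list. The interval runs from position 140165000 to 140893000 in GRCh37, which is 728 kb. A summit belonged to it when its position fell between these bounds. Within it, the alpha part ended at 140392000 and held 26 summits, the beta part ran from 140430000 to 140627000 and held 20, and the gamma part began at 140710000 and held 36. The stretch between alpha and beta held 0 summits, and the stretch between beta and gamma held 1. The rule uses positions alone and no score, but the interval was proposed with earlier results of these data known.

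Clustered protocadherins are cadherin-like adhesion proteins of the cell surface, known best from neurons, where each cell uses its own mix of them. In the alpha and gamma clusters, every variable first exon has its own promoter and is spliced to a shared set of constant exons. The beta genes consist of a lone exon each. The factor CTCF and cohesin act at many of these promoters, which share a short element known as the CGCT box. Myocardin, which switches on genes of smooth and cardiac muscle, does not bind DNA itself but rides on the serum response factor, whose binding sequence is the CArG box.

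The list came from A549, a human lung adenocarcinoma line, with MYOCD overexpressed stably from the vector pWPI. Chromatin of this line was precipitated with anti-Myocardin antibody or with IgG, 1 library for each antibody, and both libraries carried the overexpression. The list is not split by antibody, so no value below compares anti-Myocardin with IgG, and binding of Myocardin cannot be told apart from other signal. There is no replicate, and the sources used here do not give the sequencing depth. Intervals below are 95% intervals that treat summits as independent and cover counting error only.

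Shared sequence near the promoters is shown first because it sets the 3 clusters apart from most genes and from each other. RefSeq lists 53 protein-coding clustered protocadherins in GRCh38.p14, and the promoter table held 47 of them. The 6 others were PCDHA3, PCDHA13, PCDHB6, PCDHB11, PCDHGA12 and PCDHGC5. Every one of the 52 promoter entries of these genes lay on the plus strand. The letters CGCT were found on the plus strand between 100 and 30 bases before the start in 43 of 47 genes (91.5%), against 25.3% of all 27305 genes with a promoter. Anywhere in the window of 250 bases before to 50 after the start, on either strand, CGCT was present in 97.9% of the members and in 71.9% of all genes. These counts are of the letters alone, and how many belong to a CGCT box was not tested. The sequences below show, in capitals, the 10-base word shared by more promoters of its cluster than any other or tied for that place. Each of these words contains CGCT.
PCDHA1: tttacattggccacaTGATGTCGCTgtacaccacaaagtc
PCDHA12: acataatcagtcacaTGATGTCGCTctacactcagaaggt
PCDHB2: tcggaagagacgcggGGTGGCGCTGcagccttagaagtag
PCDHB15: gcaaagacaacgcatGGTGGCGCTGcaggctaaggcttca
PCDHGA1: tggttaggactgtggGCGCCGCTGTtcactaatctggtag
PCDHGA10: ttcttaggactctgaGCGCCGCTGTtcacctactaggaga

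The 6 sequences come from RefSeq (GRCh38.p14, plus strand), in the order given, from chr5:140786081-140786120, chr5:140875239-140875278, chr5:141094540-141094579, chr5:141245310-141245349, chr5:141330400-141330439 and chr5:141412928-141412967. These positions are in another build than the summits and are not to be set beside them. The word TGATGTCGCT stood in 8 of 13 alpha promoters and in none of the 14 beta or 20 gamma promoters. The word GGTGGCGCTG stood in 12 of 14 beta promoters, among them those of PCDHB2 to PCDHB5, and in 0 alpha or gamma promoters. The word GCGCCGCTGT stood in 9 of 20 gamma promoters, of both the A and B types, and in 0 alpha or beta promoters. Over all genes, searched on both strands, the words were present in 0.0439%, 0.341% and 0.165%. The words were picked as the most frequent in these promoters, so the counts are a description. No summit was placed on any promoter, because the list and the promoter table use different builds.

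The next sequences show members whose promoters have CGCT, in capitals, but not the exact word of their cluster. The letters of PCDHGC4 around it are those of the gamma word except for an A in place of a C. PCDHAC2 and PCDHGC4 are C-type genes, which lie at the end of their clusters, and PCDHB1 is the first gene of the beta cluster.
PCDHAC2: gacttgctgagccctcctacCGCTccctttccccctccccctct
PCDHB1: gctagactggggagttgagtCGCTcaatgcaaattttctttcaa
PCDHGC4: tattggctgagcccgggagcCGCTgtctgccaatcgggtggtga

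They lie at chr5:140966415-140966458, chr5:141051270-141051313 and chr5:141484948-141484991 of GRCh38.p14, plus strand. The CArG box, searched without a mismatch, stood in 2 of 47 promoters (4.26%, exact interval 0.52% to 14.5%), against 1.60% of all genes. In PCDHGB3 it began 124 bases before the start, and in PCDHA5 33 bases after it. Both are shown with the box in capitals.
PCDHGB3: ctaactagctCCTTATTTGGagctgattta
PCDHA5: aaagaaccttCCATTTTTGGctgtgcc

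They lie at chr5:141370108-141370137 and chr5:140821636-140821662 of GRCh38.p14, plus strand. The other 45 promoters hold no exact CArG box in this window, which says nothing about sites elsewhere.

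The protocadherin interval carried more summits than the sequence around it. Taken as a whole, its excess lay in summits of high score. It held 114.0 summits per Mb (exact Poisson interval 90.8 to 141.0). The 2 Mb below it held 159 summits, or 79.5 per Mb (67.6 to 92.9), and the 2 Mb above it held 124, or 62.0 per Mb (51.6 to 73.9). The ratio of the interval to both flanks together was 1.61 (exact conditional interval 1.25 to 2.06). With flanks of 1 Mb it was 1.35 (1.02 to 1.76). The rest of chromosome 5 held 33.6 summits per Mb, so the flanks were themselves dense.

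The score is the authors' own value for each peak and has no unit in the file, so it serves only for ranks and thresholds inside the list. A score of at least 12.2, the upper quartile of the list, was reached by 49 of the 83 summits, or 59.0% (exact Clopper-Pearson interval 47.7% to 69.7%). Over the whole list 26.3% of summits reached it, more than 25% because many share that exact score. In the flanks 58 of 283 summits reached it, or 20.5% (15.9% to 25.7%). Above this score the interval was 4.64 times as dense as the flanks (3.11 to 6.91). Below it the ratio was 0.83 (0.561 to 1.19), so no excess of weaker summits was seen over the interval as a whole. The parts were unlike in this: of the 34 weaker summits, gamma held 21, alpha 10 and beta 3. The parts were not set against the flanks for these scores. The median score was 14.0 (quartiles 9.73 and 22.6), against 8.28 (6.49 and 11.0) in the flanks, 9.22 in the rest of chromosome 5 and 8.50 over the list. No summit was extreme: the highest score was 35.6, while the rest of chromosome 5 reached 170.

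**Figure D1:**
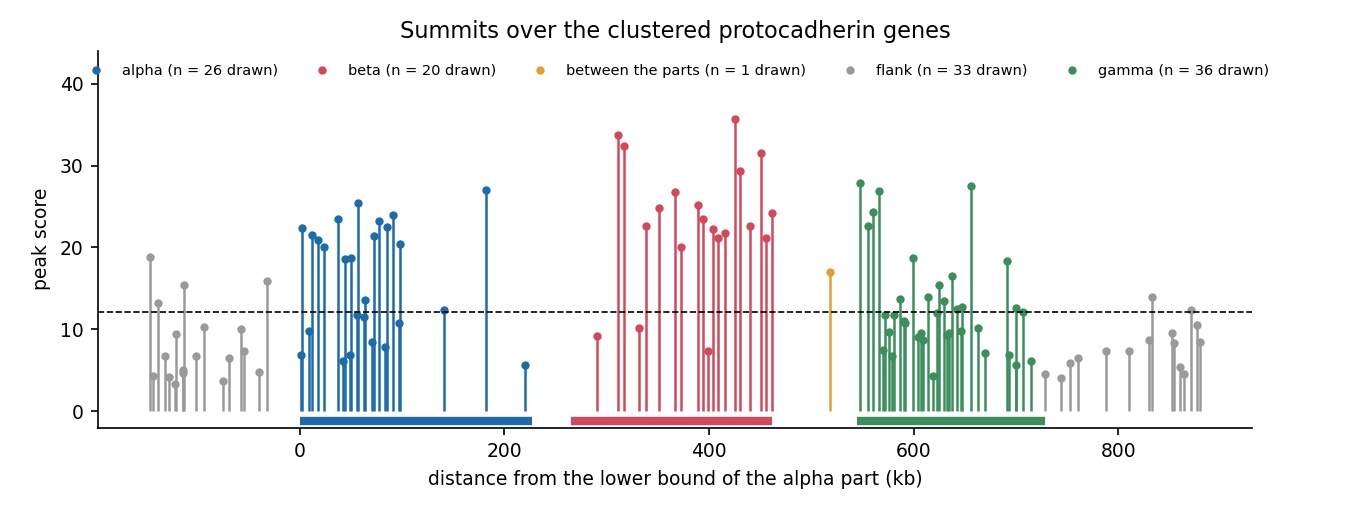
Peak score (vertical axis, no unit) of each summit by its distance in kb from the lower bound of the alpha part, with 150 kb of the flanks; coloured bars mark the 3 parts and the dashed line the upper quartile of 12.2. Beta summits reach 35.6, alpha summits include both low and high scores side by side, and 1 summit lies between beta and gamma.

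Set beside windows of the same length, the interval stood near the top of its chromosome for all summits and at the top for strong ones. Chromosome 5 was divided into 240 other windows of 728 kb, leaving out those that touch a summit-free stretch of 1 Mb or more. Of these, 1 window (0.417%) held at least 83 summits, with 103, and the median window held 18. For scores of at least 12.2, 0 of the 240 windows (0.00%, exact upper limit 1.53%) held as many as 49. The highest of them held 32 and the median 6. Over the 22 autosomes, 94 of 3673 windows (2.56%) held at least 83 summits, and 0 (0.00%, upper limit 0.1%) held at least 49 strong ones, the highest holding 37. The division was aligned to the interval itself, which favours it. With windows allowed to begin at any summit, the highest count of strong summits elsewhere on the autosomes was 53, on chromosome 17 from 38931546 to 39659546. The interval was therefore not the richest stretch of this length when starts were free.

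**Figure D2:**
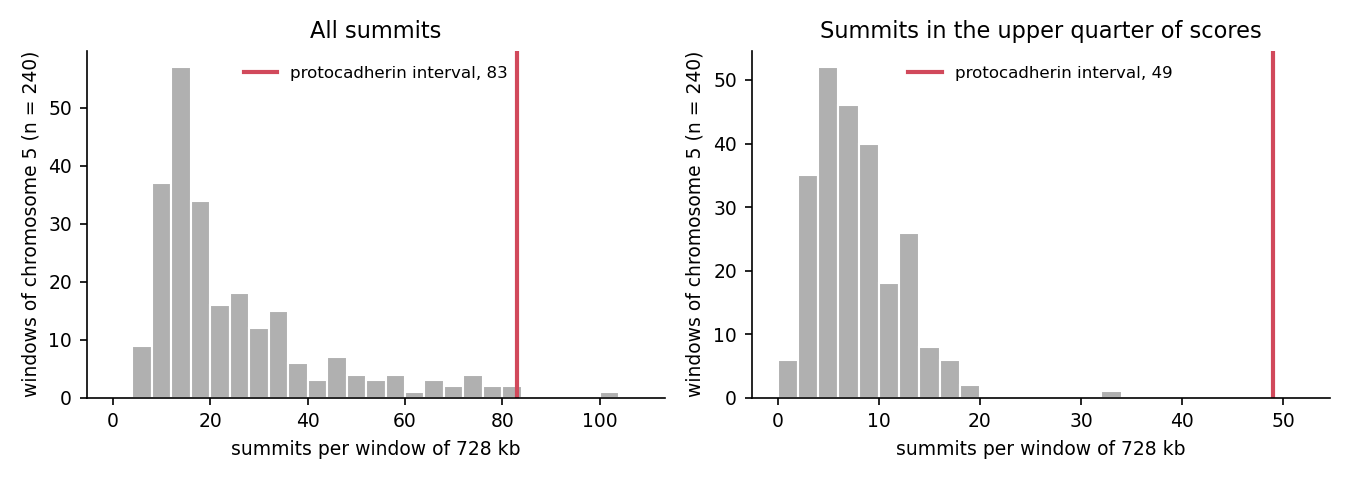
Number of summits per window of 728 kb (horizontal axis) over 240 windows of chromosome 5 (vertical axis, number of windows), for all summits on the left and for scores of at least 12.2 on the right; the red line is the protocadherin interval. The interval lies at 83 and 49, beyond all windows but 1 on the left and beyond all of them on the right.

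The 3 parts differed in the scores and in the number of their weaker summits. Gamma was the most crowded, with 197 summits per Mb (138 to 272), followed by alpha with 115 (74.8 to 168) and beta with 102 (62.0 to 157). Gamma exceeded beta 1.94-fold (1.09 to 3.53), and alpha was at 0.582 times gamma (0.338 to 0.991). Neither difference held in every setting. With summits under 1.5 kb apart merged the ratio of gamma to beta was 1.78 (0.989 to 3.27), at 2.5 kb it was 1.45 (0.785 to 2.73), and without scores shared by at least 150 peaks alpha was at 0.593 times gamma (0.339 to 1.02). Alpha and beta did not differ beyond counting error (ratio 1.13, 0.606 to 2.13). For scores of at least 12.2 the parts were close to each other, with 70.5 per Mb in alpha, 86.3 in beta and 82.0 in gamma. The ratio of gamma to beta was then 0.95 (0.442 to 2.02), and that of alpha to gamma 0.86 (0.398 to 1.87). For lower scores gamma held 21 summits, alpha 10 and beta 3, and gamma exceeded beta 7.54-fold (2.25 to 39.5). Each part was also set beside other windows of chromosome 5 of its own length. At least as many summits as in the part were held by 2.57% of 778 windows for alpha, 4.68% of 897 for beta and 0.00% of 965 for gamma. For scores of at least 12.2 the shares were 0.129%, 0.111% and 0.104%, which is 1 window in each case.

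Beta held the strongest summits. The median of its scores was 23.1, the range 7.37 to 35.6 and the quartiles 21.2 and 27.4, and 17 of its 20 summits (85.0%) scored at least 20, as did 6.16% of the whole list. The 4 strongest summits of the whole interval all lay in beta, at positions 140590478 (35.6), 140476096 (33.7), 140482225 (32.4) and 140615953 (31.5). The fifth, at 140595686, scored 29.3 and lay in beta too. Only 3 beta summits scored below 12.2, and they were at 140456009 (9.2), 140497023 (10.2) and 140564259 (7.4).

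Alpha had a median of 18.7 with a range of 5.64 to 27.0, and 12 of its 26 summits scored at least 20. Its strongest summits were at 140346739 (27.0) and 140222384 (25.5). The first lay in the sparse upper end of the part, the second in the crowded lower end. Gamma had a median of 11.8, a range of 4.27 to 27.8 and 5 of 36 summits with a score of at least 20. Of these 5, 4 were the first summits of the part, at 140712193 (27.8), 140720460 (22.6), 140725389 (24.4) and 140731559 (26.9). The other was at 140821333 (27.5). The lowest score of the interval was 4.27, at 140784379 in gamma.

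**Figure D3:**
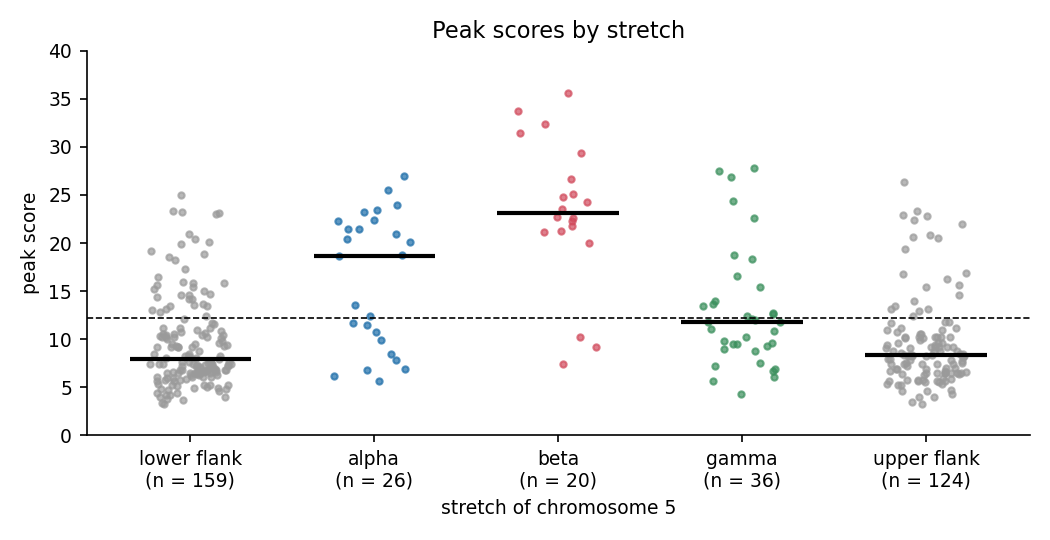
Peak score (vertical axis, no unit) of every summit in the lower flank, the 3 parts and the upper flank (2 Mb flanks, horizontal jitter only); bars are medians and the dashed line is the upper quartile of the list, 12.2. Medians are 7.92, 18.7, 23.1, 11.8 and 8.37 from left to right, and the ranges of all 5 groups overlap.

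Summits of the interval had a neighbour within 5 or 10 kb more often than those around it, but not within 1.5 kb. Such shares rise with the density of summits, which was higher in the interval, and they were not adjusted for it. They are therefore not a result apart from the density given above, for all summits or for strong ones. Another summit lay within 10 kb of 77 of the 83 (92.8%, exact interval 84.9% to 97.3%), against 64.1% of the whole list and 75.6% in the flanks (70.2% to 80.5%). Within 5 kb the shares were 65.1% (53.8% to 75.2%), 37.9% and 44.2% (38.3% to 50.2%). Within 1.5 kb they were close, at 19.3% (11.4% to 29.4%), 18.0% and 18.7% (14.4% to 23.8%). Distances under 1 kb made up 1.22% in the interval, 5.72% over the list and 7.47% in the flanks. Among summits with a score of at least 12.2 alone, 83.7% of the 49 (70.3% to 92.7%) had another such summit within 10 kb, against 20.4% over the list and 20.7% in the flanks (11.2% to 33.4%). Distances of 4.5 to 7 kb between adjacent summits made up 33 of 82 (40.2%), against 11.7% over the list and 17.8% in the flanks. In beta, 10 of 19 distances fell in this class and 0 were shorter than 4.5 kb. Its closest summits were 140564259 and 140568798, 4.54 kb apart. In alpha, 12 of 25 distances were 4.5 to 7 kb, 9 were 1 to 2.5 kb, and 0 lay between these classes. The shortest distance in the class of 4.5 to 7 kb was 4530 bp in alpha and 4539 bp in beta, just above its edge. The classes are uneven in width, and the edge of 2.5 kb is the limit for pairs, set after the values were seen. In gamma the distances were spread more evenly, with 8 of 35 at 1 to 2.5 kb, 9 at 2.5 to 4.5 kb and 11 at 4.5 to 7 kb. Scores shared by at least 150 peaks of the list were less common here (5 of 83, 6.02%) than over the list (29.4%) or in the flanks (19.4%).

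**Figure D4:**
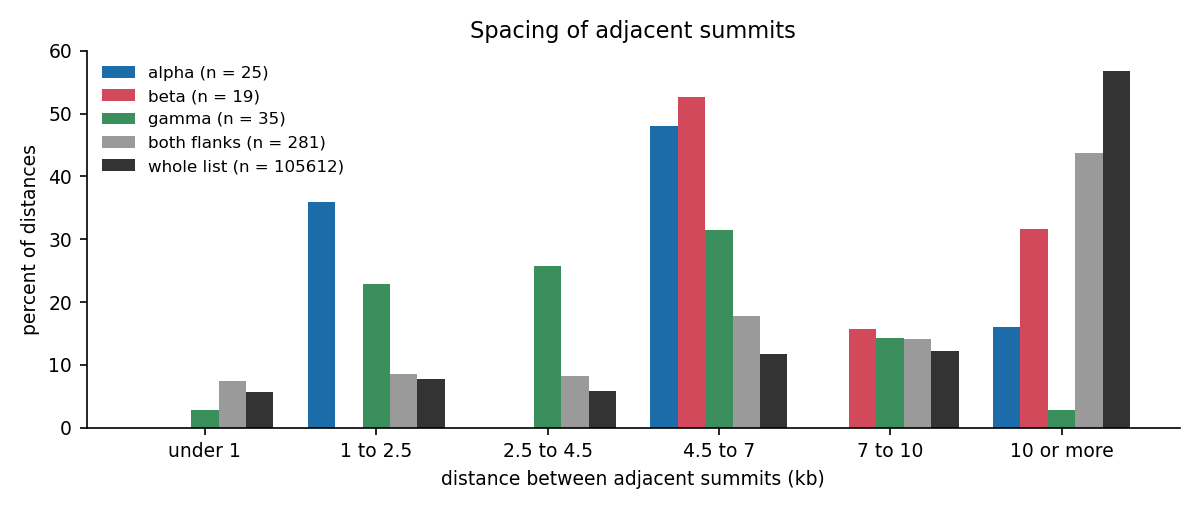
Share of distances between adjacent summits (vertical axis, percent) by distance class in kb, for the 3 parts, both flanks and the whole list, with the number of distances in brackets. The class of 4.5 to 7 kb holds 48.0% in alpha, 52.6% in beta, 31.4% in gamma and 11.7% over the list.

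The close pairs of alpha all had the same order, with the weaker summit first and the stronger one at the higher coordinate. Since RefSeq places these genes on the plus strand, the higher coordinate is the downstream side. Pairs were defined, after the values were seen, as adjacent summits under 2.5 kb apart. There were 9 in alpha, 1.0 to 2.04 kb apart, and the second summit had the higher score in 9 of 9. Elsewhere in the list the second summit scored higher in 50.3% of 14042 such pairs, with pairs of equal score left out. Of all stretches of 9 such pairs in a row on a chromosome elsewhere, 0.224% (31 of 13844) had 1 order throughout. The stretches overlap, each shifted by 1 pair from the last, so they are not independent cases. Their length was set to the number of pairs in alpha, and the order was picked after it was seen there. The stretches elsewhere were also not limited to a span like that of alpha. The share is therefore a description and not a chance rate for the alpha pairs. First summits in alpha scored 6.2 to 11.7 and second ones 13.6 to 25.5, without overlap, and the median ratio was 2.53. At the lower end of the part, the summit at 140166092 scored 6.9 and its partner at 140167799 scored 22.3. The smallest step was at 140228373 (11.5) and 140229375 (13.6), and these also formed the closest pair of the part.

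Gamma also had 9 close pairs, but their order was mixed. The second summit was higher in 5 of 9, with first summits at 6.7 to 18.3 and second ones at 5.6 to 15.4. The median ratio was 1.03. The pair at 140856204 (18.3) and 140857961 (6.9) and the closest pair of the interval, at 140864647 (12.7) and 140865383 (5.6), ran against the order seen in alpha. Beta had 0 close pairs.

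**Figure D5:**
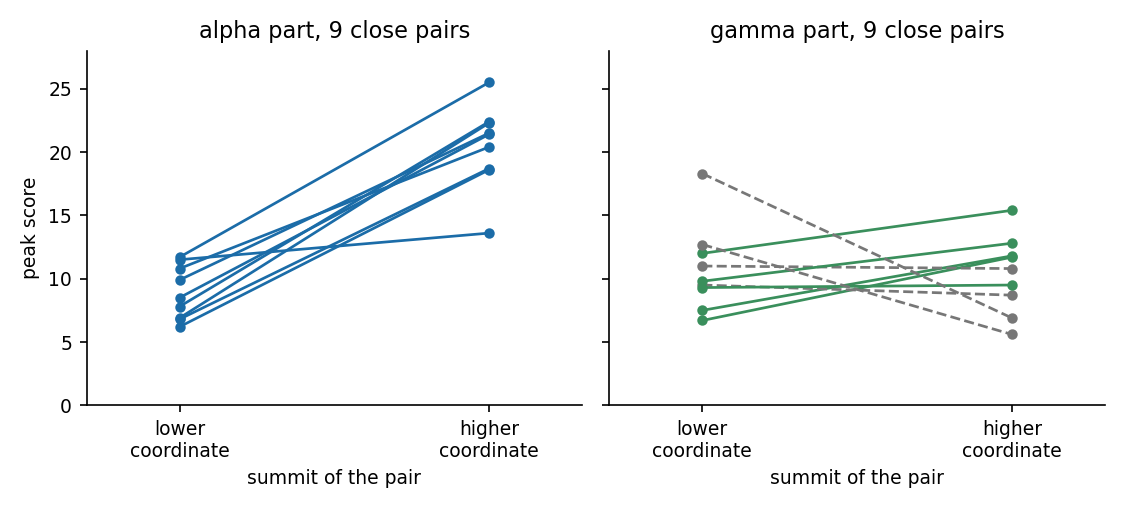
Peak score (vertical axis, no unit) of the 2 summits of each pair under 2.5 kb apart, joined by a line from the lower to the higher coordinate, for alpha on the left and gamma on the right; dashed grey lines mark pairs whose second summit is lower. All 9 alpha pairs rise, and 5 of 9 gamma pairs do.

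Counted as groups, with summits under 2.5 kb apart joined, alpha began with a row of 14 groups, made of the 9 pairs and 5 lone summits. The strongest summit of each group scored 13.6 to 25.5, above the upper quartile in 14 of 14. Over the whole of beta and gamma this held for 17 of 20 and 15 of 27 groups. Groups of the whole list were not counted in this way, and taking the strongest summit of each pair raises such a share. The row also leaves out the last 3 groups of alpha, of which that at 140385194 scored 5.6. The distance between groups of the alpha row had a median of 6.75 kb. In 12 of 13 cases this distance was between 4 and 9 kb. The exception of 14.5 kb lay between 140188394 and 140202904. Over the whole of gamma 21 of 26 such distances were between 4 and 9 kb, and over the whole of beta 11 of 19. The alpha row was cut at its first distance of 30 kb or more, which favours it. Such distances were not counted over the list or the flanks. RefSeq lists 14 numbered alpha entries in a row, which are PCDHA1 to PCDHA13 and the pseudogene PCDHA14. After the row came the longest stretch of alpha without a summit, 43.1 kb from 140263285 to 140306393. The 3 summits that followed scored 12.4 at 140306393, 27.0 at 140346739 and 5.6 at 140385194. In RefSeq the C-type genes PCDHAC1 and PCDHAC2 and the entry for the constant region, PCDHACT, follow the numbered genes. The row and the numbered entries were picked for this comparison after the values were seen. Over the whole part, alpha had 17 groups and 16 entries, and those 16 leave out PCDHACT. Which summit belongs to which gene was not determined.

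Counted in the same way over the whole part, beta had 20 groups and 19 entries, made of 16 genes and the pseudogenes PCDHB17P, PCDHB18P and PCDHB19P. Gamma had 27 groups and 24 entries, made of 22 genes and the pseudogenes PCDHGB8P and PCDHGB9P. Per protein-coding gene there were 1.73 summits in alpha, 1.25 in beta and 1.64 in gamma.

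The interval also held long stretches without summits, as did the flanks. In the interval the longest was 70.8 kb, from 140385194 at the end of alpha to 140456009, the first summit of beta. A longer one lay in the upper flank, from 2207.9 to 2427.6 kb above the lower bound of alpha. The stretch of 70.8 kb includes the gap between alpha and beta described next. This gap is 38.0 kb long, and its count of 0 allows up to 78.9 summits per Mb by a floor of 3 counts. By the exact Poisson limit it allows up to 97.1, so the gap alone cannot be called sparser than the flanks. RefSeq has no protein-coding gene between PCDHAC2 and PCDHB1. Between beta and gamma, where RefSeq has the mitochondrial carrier gene SLC25A2 and the TFIID subunit gene TAF7, there was 1 summit in 83.0 kb, at 140683658 with a score of 17.0. Within beta the longest stretch was 20.1 kb, from 140456009 to 140476096, and within gamma 21.7 kb, from 140834535 to 140856204. The most crowded 20 kb, from 140202904 in alpha, held 7 summits with scores from 6.2 to 25.5, and 7 such stretches, counted from each summit and partly overlapping, tied at that count.

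At the lower bound, the last summit outside was at 140133251 (15.9), 31.7 kb below, and the first inside at 140166092 (6.9), 1.09 kb above it. At the upper bound, the last summit inside was at 140879954 (6.1), 13.0 kb below, and the first outside at 140893682 (4.6), 0.682 kb beyond. In the flanks, the highest scores were 25.04 at 139526079 below the interval and 26.38 at 141488562 above it. Scores of at least 20 were reached by 8 of 159 and 9 of 124 flank summits, against 34 of 83 in the interval.

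The members of each cluster are copies of related genes, and the sources used here do not say what was done with reads that match several copies. Neither sequence likeness nor copy number of this interval in A549 was measured in these data, and their part in the scores and spacing was not tested. No expression value is in the list, so neither the use of these genes nor the identity of the cell line could be checked.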

How the data were processed

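The authors deposited 1 list of 105637 summits for the series, each 1 bp wide and with its peak score, per the file headers. No antibody is tied to a row. The score has no stated unit. The submitters' processing notes name CASAVA 1.4 and the builds mm9 and GRCh38.p12. However, 1093 summits lie past chromosome ends of GRCh38 and 0 past those of GRCh37, so positions were read as GRCh37. The end column was taken as the summit. The sources used here do not give the version or threshold of the peak caller, the aligner, or the use of IgG.

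Counts per interval, windows and distances were computed with Python 3.11.15, numpy 2.4.6, pandas 2.3.3 and scipy 1.17.1. The density and window steps were tested on simulated lists with summits spread uniformly and a planted denser window. The summits of the real list are spread unevenly, so this checks the computation and not how the intervals behave here. No genome of GRCh37 was used here, so gene names come only from RefSeq tables of GRCh38.p14 (59 protocadherin entries matched), and coordinates were not converted. The interval, its members and the lists were chosen with earlier results of these data known. Summits were named by rank of score within the interval and its parts, as closest pairs, as ends of the longest stretches, as neighbours of the bounds, and, after their values were seen, as members of pairs and rows.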

Additional observations from a re-analysis of the deposited data

How the results depend on the processing

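Over 10 results, 44 alternatives were tried, 37 planned and 7 added after seeing the data; 31 stayed within the interval of the main value. The ratio of the interval to its flanks fell to 1.35 (1.02 to 1.76) with flanks of 1 Mb and 1.43 (1.09 to 1.88) with the lower flank only. It rose to 2.43 with flanks of 5 Mb and 4.64 for scores of at least 12.2. The ratio stayed above 1 in each of the 8 alternatives tried. The share of chromosome 5 windows with at least as many summits became 0.00% for those scores, 2.56% over all autosomes and 0.00% over all autosomes for those scores. The ratio of gamma to beta turned to 0.95 for those scores. Its interval reached below 1 when close summits were merged. That of alpha to gamma reached above 1 for those scores and without the 19 repeated scores, as given with those ratios. The difference in scores from the flanks was 5.73 as a difference of medians and 0.752 as a difference of mean log2 scores. These are on different scales, so the second lies outside the interval of the first by its unit, and the interval scored higher in both. The share of strong summits was 45.8% for the top 10% of scores, which 10.0% of the list reach, and 83.1% above the list's median. The share with a neighbour was 65.1% within 5 kb (37.9% over the list), 19.3% within 1.5 kb (18.0%) and 83.7% among strong summits within 10 kb (20.4%). With 1 mismatch the CArG box stood in 34.0% of the promoters, against 22.3% of all genes. The cause of each change was not tested. No paired analysis was possible because each antibody has 1 library and the list is not split between them. Without read counts, no limit from sequencing depth can be stated.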

Other observations

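The promoters of these genes were poor in G and C. Over the 47 genes the median GC content of the promoter window was 39.7%, against 58.3% over all 27305 genes. The 43 numbered genes had a median of 38.7% (32.3% to 57.5%), while the 4 C-type genes with an entry (PCDHAC1, PCDHAC2, PCDHGC3 and PCDHGC4) had 59.0% to 66.0%. With 1 mismatch allowed, the CArG box stood in 8 of 14 beta promoters, 3 of 13 alpha promoters and 5 of 20 gamma promoters, and the exact intervals of these shares overlap (28.9% to 82.3%, 5.04% to 53.8% and 8.66% to 49.1%).

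At the length of the parts, windows elsewhere held more strong summits than the parts did. At the length of the beta part, the window of chromosome 5 from 17501376 to 17698376 held 22 summits with a score of at least 12.2, against 17 in beta. At the length of the alpha part, the window of chromosome 17 from 39272947 to 39499947 held 21, against 16 in alpha. What these windows contain was not examined.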
